A study of Homo sapiens with 12 samples.

Results

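DMBT1 and 9 other genes of airway secretory defence were followed across 12 RNA-seq libraries of PC9, a human lung adenocarcinoma cell line that carries a mutant EGFR and responds to EGFR inhibitors. The 10 genes were DMBT1, PIGR, LCN2, LTF, LYZ, SLPI, PI3, WFDC2, BPIFB1 and SCGB3A1, taken by symbol from the 62754 gene identifiers of the deposited table. DMBT1 was chosen on its own measured values, for its higher level in the knockout line and after 28 days of drug, so all its values are given as a description with no test, the WT and DTC libraries having entered that choice too. The other 9 were listed by function. Of the 10 genes, 8 passed the filter on low counts and were among the 17115 genes tested, while LTF and SCGB3A1 did not pass.

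All cells came from 1 subclonal PC9 line, grown in RPMI-1640 with 10% fetal bovine serum. The 4 groups held 3 libraries each. Cells wild type for TDP1, the enzyme that removes stalled topoisomerase I from DNA ends, were sequenced without drug (WT), at day 7 of culture with erlotinib at 1 µM (DTC, the drug-tolerant cells) and at day 28 with the same dose (DTEC, the drug-tolerant expanded cells). Erlotinib blocks the EGFR kinase. The last group was the untreated TDP1 knockout line KO2 (KO), so the knockout rests on 1 line. The untreated libraries carry no day label, and no untreated group is labelled day 7 or day 28. In DTC and DTEC against WT, drug, time in culture and outgrowth of surviving cells therefore cannot be told apart. The cultures of a condition were split from a shared flask and then kept apart, so p-values measure the spread among such cultures. All libraries carry 1 batch label.

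The airway lining secretes proteins that bind, starve or lyse microbes, together with inhibitors that protect the tissue from neutrophil proteases. DMBT1 is a large secreted glycoprotein built of scavenger receptor cysteine-rich domains that binds bacteria, surfactant protein D and IgA. PIGR carries polymeric IgA across the epithelium, LCN2 and LTF withhold iron, LYZ cleaves bacterial cell walls, and SLPI and PI3 inhibit neutrophil elastase. Many of these genes respond to NF-kappaB signalling in epithelial cells.

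Libraries held 25572691 to 38373679 counts. Levels are given in CPM, counts scaled to a common library size with TMM factors, each as mean ± SD over the 3 libraries of a group. DTC replicate 1 stood apart from DTC replicates 2 and 3, with a chi-square per gene of 144 and 88.9 against 20.7 between the latter. Leaving it out changed no member's call in DTC against WT or in DTEC against DTC. TDP1 itself was at 10.8 CPM in KO against 26.3 CPM in WT, a log2 fold change of -1.29. Mitochondrial genes took 4.43% to 5.41% of counts in DTC and 1.82% to 2.78% in the other groups, and the part of this in the results below was not tested. In bulk libraries, fewer cells making a transcript and less transcript per cell cannot be told apart.

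Several marker lists of other cell types were above 0 and differed between the groups. The 7 epithelial markers summed to between 6479 CPM (a DTC library) and 12498 CPM (a KO library). All 7 neutrophil markers stayed under 1 CPM in every library, with MPO and ELANE at 0 in all 12, and their sum was at most 0.115 CPM in WT, 0.618 CPM in DTC, 0.609 CPM in DTEC and 0.111 CPM in KO. All 5 plasma cell markers stayed under 1 CPM. The 8 leukocyte markers summed to 73.7 to 78.2 CPM in WT, 87.2 to 104 CPM in DTC, 54.5 to 75.9 CPM in DTEC and 70.7 to 74.5 CPM in KO. Of these 8 genes 5 were under 1 CPM throughout, PTPRC and CD3E among them, and of the 4 tested 3 were called higher in DTC, while in DTEC 2 were called higher and 1 lower, and in KO 0 were called by the edgeR test. The 4 club cell markers summed to 0.144 to 0.179 CPM in WT, 3.14 to 4.13 CPM in DTC, 1.07 to 1.62 CPM in DTEC and 0.453 to 0.491 CPM in KO, with SCGB1A1, CYP2F1 and SCGB3A2 under 1 CPM throughout, and the 1 tested was called higher in DTC, DTEC and KO. The 5 goblet cell markers summed to 6.48 to 8.20 CPM in WT, 1.01 to 2.17 CPM in DTC, 13.5 to 23.2 CPM in DTEC and 12.4 to 16.1 CPM in KO, the group order of DMBT1 but with DTEC and KO overlapping. MUC5AC, FOXA3, CLCA1 and TFF3 were under 1 CPM in every library, and SPDEF, the other goblet marker, was called lower in DTC and higher in DTEC and KO. The 6 serous gland markers summed to 1.05 to 1.16 CPM in WT, 4.29 to 7.33 CPM in DTC, 2.53 to 4.56 CPM in DTEC and at most 1.75 CPM in KO, where every library lay above the WT libraries. The 1 tested was called higher in DTC and DTEC. The ciliated list (5 genes) summed to 10.8 to 12.7, 17.5 to 22.5, 24.7 to 43.6 and 11.3 to 14.3 CPM in WT, DTC, DTEC and KO, and the basal list (4 genes) to 144 to 152, 61.2 to 92.8, 25.9 to 35.5 and 192 to 201 CPM in the same order. The basal sum fell in DTC although 2 of its 3 tested genes rose there, while 1 fell (median log2 fold change 1.02). In DTEC 0 basal genes rose and 1 fell, and in KO 0 were called by the edgeR test. Of 4 ciliated genes tested, 3 rose in DTC, 3 in DTEC and 1 in KO, and 0 fell. For all these marker counts, the background is the share of calls over the 17115 genes. Upward and downward calls took 34.0% and 33.3% in DTC, 26.0% and 26.3% in DTEC, and 2.76% and 1.55% in KO. The part of these markers in the results below was not tested.

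Sequences before a RefSeq start are shown for DMBT1, LCN2 and BPIFB1. DMBT1 leads the set, and LCN2 and BPIFB1 were the members called higher in both DTEC and KO. Each run is read 5′ to 3′ on the gene's strand from the 250 bases before the RefSeq start (RefSeq, GRCh38.p14), trimmed to the longest stretch outside the gene's GENCODE 29 exons. Capitals mark matches on either strand to motifs named after kappaB, AP-1 (TGANTCA), C/EBP (TTGCNNAA), STAT (TTCNNNGAA) and ETS (AGGAAG) factors. The runs are chr10:122560504-122560664 (plus strand) for DMBT1, chr9:128149265-128149440 (plus strand) for LCN2 and chr20:33282964-33283134 (plus strand) for BPIFB1. Those of LCN2 and BPIFB1 lie inside the GENCODE 29 spans of these genes, which begin further upstream. For BPIFB1, the bases checked after the RefSeq start were not found unbroken in a GENCODE 29 transcript of the gene.
DMBT1: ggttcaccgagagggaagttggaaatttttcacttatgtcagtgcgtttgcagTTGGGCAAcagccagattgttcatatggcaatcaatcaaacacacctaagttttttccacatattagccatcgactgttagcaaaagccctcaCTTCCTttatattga
LCN2: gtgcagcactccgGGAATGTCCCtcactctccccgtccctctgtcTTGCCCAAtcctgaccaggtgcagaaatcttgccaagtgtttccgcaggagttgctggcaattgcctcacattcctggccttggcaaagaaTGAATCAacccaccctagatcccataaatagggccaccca
BPIFB1: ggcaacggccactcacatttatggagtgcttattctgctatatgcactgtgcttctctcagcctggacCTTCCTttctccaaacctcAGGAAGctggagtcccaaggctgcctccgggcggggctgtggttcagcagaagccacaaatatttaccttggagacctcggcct
In DMBT1 the capitals are a C/EBP match 197 to 190 bases before the start and an ETS match 104 to 99 bases before it, both on the opposite strand. LCN2 holds a kappaB match on the opposite strand at 175 to 166 bases before the start, followed by a C/EBP and an AP-1 match. Its window of 250 bases also held an ETS match 224 to 219 bases before the start, outside the printed run. BPIFB1 shows a pair of ETS matches. Over 35116 promoter windows of 250 bases, 9.96% held a kappaB match, 9.05% a C/EBP, 6.57% an AP-1 and 28.7% an ETS match. No STAT match lay in the 3 windows, against 6.57% of all windows. A match describes letters and not a bound site. The promoter table matched PIGR, LTF, WFDC2 and SCGB3A1 as well, and held no entry for SLPI, PI3 and LYZ.

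DMBT1 (ENSG00000187908, chr10:122560665-122643736, GRCh38) was the most variable member. Its level was 3.05, 3.84 and 3.61 CPM in WT, and 0.135, 0.0883 and 0.264 CPM in DTC, where only 4, 3 and 9 counts were read. In DTEC it was 34.8, 69.8 and 85.4 CPM, and in KO 33.1, 33.9 and 34.5 CPM. The groups did not overlap, and their order was DTEC, KO, WT, DTC. The gap between DTEC replicate 1 and the highest KO library was small, so the order of DTEC over KO rests on close values.

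After 7 days of erlotinib DMBT1 stood at 4.79% of its WT level, with a fitted log2 fold change of -4.38 (SE 0.467). Counting error alone put the pooled DTC level, 16 counts against 341, between 2.66% and 7.74% of WT (95% exact binomial interval, which treats counts as independent). The fitted level was 18.1-fold WT in DTEC (log2 4.18, SE 0.285) and 9.68-fold WT in KO (log2 3.27, SE 0.278). DTEC libraries differed by more among themselves (63.3 ± 25.9 CPM, n = 3) than KO libraries did (33.8 ± 0.717 CPM, n = 3). DMBT1's neighbours on chromosome 10 with tested levels were HTRA1, a serine protease, and CUZD1. Both averaged under 1 CPM in all groups, and neither was called in DTC, DTEC or KO against WT. For HTRA1 every KO library lay above WT, at 0.678 against 0.192 CPM (log2 1.79, edgeR adjusted p = 0.0604). Every DTEC library lay below WT (log2 -1.16, edgeR adjusted p = 0.132). From DTC to DTEC, HTRA1 was called lower (log2 -1.84, edgeR adjusted p = 0.0167).

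**Figure D1:**
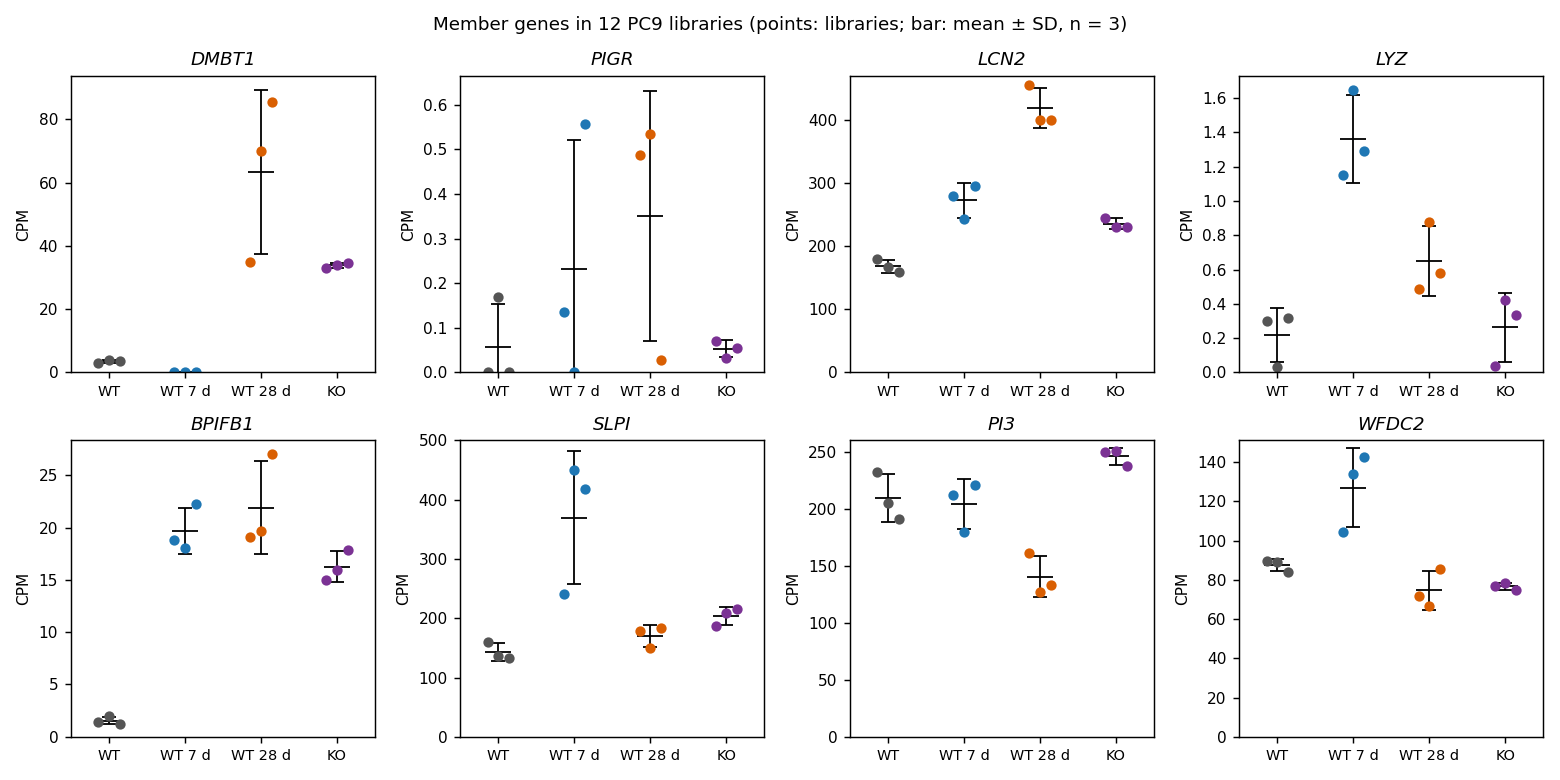
CPM of the 8 members that passed the count filter in each of the 12 libraries, as points, with the mean and SD of each group of 3 (linear axes from 0; WT 7 d is DTC and WT 28 d is DTEC). DMBT1 is lowest at 7 days and highest at 28 days, BPIFB1 is low in WT alone, and SLPI and WFDC2 peak at 7 days.

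BPIFB1 (ENSG00000125999, chr20:33273480-33309878), a secreted BPI-fold protein of airway and nasal glands, was the other member with a large change. Its level was 1.43, 1.96 and 1.27 CPM in WT, 18.8, 18.1 and 22.2 CPM in DTC, 19.1, 19.6 and 27.0 CPM in DTEC, and 15.0, 16.0 and 17.9 CPM in KO. Every library of the other 3 groups lay above every WT library. BPIFB1 rose 12.7-fold in DTC (log2 3.67, SE 0.190, edgeR adjusted p = 1.15e-09), 14.2-fold in DTEC (log2 3.83, SE 0.190, edgeR adjusted p = 3.6e-09) and 10.5-fold in KO (log2 3.40, SE 0.190, edgeR adjusted p = 2.42e-07). These comparisons share the WT libraries. From DTC to DTEC the log2 difference was 0.16 (SE 0.156, edgeR adjusted p = 0.419), and the libraries overlapped. In DTC, where DMBT1 was lowest, BPIFB1 rose.

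The neighbour of BPIFB1 on one side, BPIFA1, encodes another airway surface protein of the same family and lies 30.2 kb away. It was at 0.0931 ± 0.0607 CPM in WT and 1.29 ± 0.398 CPM in KO (n = 3 each), a log2 fold change of 3.75 (SE 0.902, edgeR adjusted p = 0.0315). That call was lost when any 1 of the 6 libraries was left out, with adjusted p from 0.0561 to 0.137. In DTC and DTEC, BPIFA1 averaged 0.256 and 0.418 CPM and was not called. The neighbour on the other side, CDK5RAP1, was lower in DTC (-1.23) and DTEC (-0.79), both called, and differed from WT by -0.12 in KO (edgeR adjusted p = 0.609). Of the 9 other BPI-fold genes listed, 2 were tested, and the second, LBP, was called higher in DTEC (log2 3.11).

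LCN2 (ENSG00000148346, chr9:128149071-128153455) encodes lipocalin 2, which binds bacterial siderophores. WT libraries were at 180, 167 and 159 CPM, DTC at 280, 243 and 297 CPM, DTEC at 456, 401 and 400 CPM, and KO at 246, 231 and 231 CPM. DTEC stood above all other groups, DTC and KO overlapped, and both lay above WT. LCN2 rose in DTC by 0.69 on the log2 scale (SE 0.101, edgeR adjusted p = 2.87e-05) and in DTEC by 1.31 (SE 0.102, edgeR adjusted p = 1.88e-07). It was higher in DTEC than in DTC by 0.62 (edgeR adjusted p = 0.000137). In KO the log2 change was 0.48 (SE 0.101, edgeR adjusted p = 0.0136). The KO call was lost without WT replicate 2 (0.0557), WT replicate 3 (0.0862), KO replicate 1 (0.0654) or KO replicate 2 (0.0608).

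LTF (chromosome 3), the iron-binding lactoferrin, had 0 to 5 counts in any library and was not tested. LYZ (ENSG00000090382, chr12:69348341-69354234) was at trace level, at 0.299, 0.0337 and 0.317 CPM in WT and 1.15, 1.65 and 1.29 CPM in DTC. The DTC libraries all lay above WT, with a log2 fold change of 2.60 (SE 0.617, edgeR adjusted p = 0.00182). In DTEC LYZ was at 0.648 ± 0.205 CPM and in KO at 0.263 ± 0.202 CPM (n = 3 each), with adjusted p of 0.0585 and 0.89 against WT in the edgeR test. Only 1 of its 12 deposited values was exactly whole, and an antisense gene overlaps it, so its level is uncertain. PIGR (chromosome 1), the IgA carrier, had at most 19.0 counts in any library. Its values were 0, 0.169 and 0 CPM in WT and 0.487, 0.535 and 0.0275 CPM in DTEC. The groups overlapped, and PIGR was not called in the 4 comparisons as fitted with all libraries. Without WT replicate 2, the only WT library with PIGR counts, it was called higher in DTC (edgeR adjusted p = 0.0444) and DTEC (0.0363), and with no count filter in DTEC (0.0192). Only 5 of its 12 values were exactly whole, 3 of them 0, so its level is uncertain too. SCGB3A1 (chromosome 5), a secretoglobin of airway secretory cells, had 0 counts in all 12 libraries, which allows a level of up to 0.0824 to 0.115 CPM depending on the library (3 counts). None of the 8 other secretoglobins listed passed the count filter either.

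The 3 protease inhibitors SLPI, PI3 and WFDC2 all carry WAP domains and lie in 1 stretch of chromosome 20. Per kilobase of exon they were, with LCN2, the abundant members: in WT, PI3 averaged 363 CPM per kb, SLPI 239, LCN2 106 and WFDC2 63.4, against 0.501 for BPIFB1 and 0.433 for DMBT1. In DTEC, SLPI averaged 285 CPM per kb, LCN2 262, PI3 243 and WFDC2 54.1, and DMBT1 reached 7.84 CPM per kb.

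SLPI (ENSG00000124107, chr20:45252239-45254564, minus strand), the secretory leukocyte protease inhibitor, was at 160, 136 and 132 CPM in WT and 241, 450 and 418 CPM in DTC. DTEC libraries were at 178, 149 and 183 CPM and KO libraries at 187, 208 and 216 CPM. DTC stood above every other group, and DTEC overlapped WT. SLPI rose in DTC by 1.37 on the log2 scale (SE 0.186, edgeR adjusted p = 1.68e-05), and by 1.64 without the low DTC replicate 1. It was lower in DTEC than in DTC, at -1.12 (edgeR adjusted p = 0.000173), or -1.37 without that library, and its DTEC level differed from WT by 0.25 (edgeR adjusted p = 0.263). The KO libraries lay above the WT libraries without overlap, at 0.51 on the log2 scale, and did not pass the test (edgeR adjusted p = 0.156). With the KO and WT libraries fitted alone, that p was 0.000737, and with no count filter 0.00322.

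WFDC2 (ENSG00000101443, chr20:45469706-45481532), also known as HE4, was likewise highest in DTC, by a smaller margin. It was at 89.6, 89.0 and 84.2 CPM in WT, 104, 134 and 142 CPM in DTC, 71.8, 66.6 and 85.7 CPM in DTEC, and 76.8, 78.5 and 74.6 CPM in KO. WFDC2 rose in DTC by 0.54 (SE 0.121, edgeR adjusted p = 0.0013), or 0.69 without DTC replicate 1, and was lower in DTEC than in DTC at -0.76 (edgeR adjusted p = 0.000113). Against WT it was at -0.23 in DTEC and -0.19 in KO, with adjusted p of 0.129 and 0.461 in the edgeR test. The DTEC difference passed the test without DTEC replicate 3 (edgeR adjusted p = 0.0326).

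PI3 (ENSG00000124102, chr20:45174876-45176544), which encodes elafin, did not follow SLPI and WFDC2 at 7 days. WT libraries were at 232, 205 and 191 CPM, DTC at 212, 179 and 221 CPM, DTEC at 161, 127 and 133 CPM, and KO at 250, 250 and 237 CPM. DTEC lay below every other group, and DTC overlapped WT. PI3 fell by 0.58 on the log2 scale in DTEC (SE 0.116, edgeR adjusted p = 0.000832) and was at -0.54 in DTEC against DTC (edgeR adjusted p = 0.0013). The DTC difference of -0.04 (edgeR adjusted p = 0.789) has no settled sign: it was 0.32 and passed the test (edgeR adjusted p = 0.0224) when libraries were scaled by total counts alone. KO was at 0.23 above WT (edgeR adjusted p = 0.338), and passed the test with those libraries fitted alone (0.0189).

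**Figure D2:**
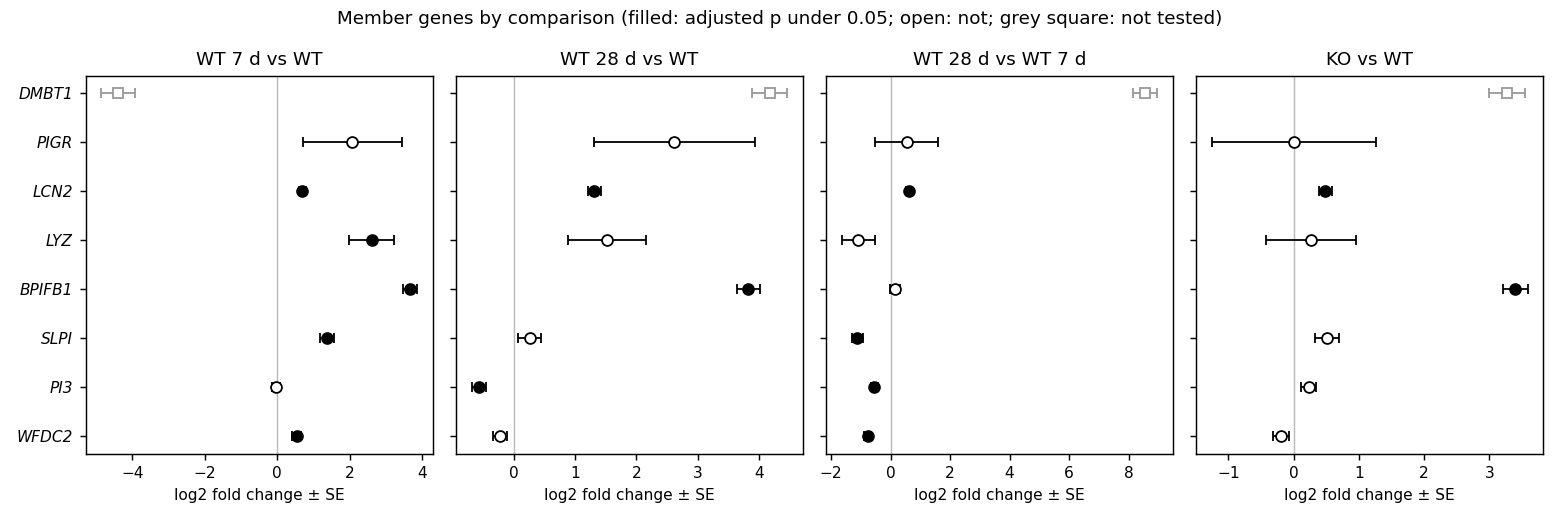
Fitted log2 fold change ± SE of the 8 tested members in the 4 comparisons (horizontal axes differ in range between panels; WT 7 d is DTC and WT 28 d is DTEC). Filled circles passed an adjusted p of 0.05, open circles did not, and grey squares mark DMBT1, which was not tested; BPIFB1 lies above 3 in the 3 panels against WT, while SLPI, PI3 and WFDC2 lie below 0 from 7 to 28 days.

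Counted together, the 9 members other than DMBT1, of which 7 were tested, moved mostly upward at 7 days. In DTC 5 were higher than WT (BPIFB1, LYZ, SLPI, LCN2, WFDC2) and 0 lower, where 34.0% of all genes tested were called higher and 33.3% lower. PIGR and PI3 were not called there. In DTEC 2 were higher (BPIFB1, LCN2) and 1 lower (PI3), where 26.0% of all genes were called higher and 26.3% lower. From DTC to DTEC 1 was higher (LCN2) and 3 lower (SLPI, WFDC2, PI3), where 28.8% and 26.6% of all genes were called. In KO 2 were higher (BPIFB1, LCN2) and 0 lower, where 2.76% of all genes were called higher and 1.55% lower. The median log2 fold change of the 7 was 1.37 in DTC, 1.31 in DTEC, -0.54 from DTC to DTEC and 0.27 in KO. The medians over all genes tested were 0.06, 0.02, -0.01 and -0.01. Under scaling by total counts, the median gene moved by 0.35 in DTC, 0.17 in DTEC and -0.19 from DTC to DTEC. It changed the share of higher genes among all calls from 50.5% to 68.4% in DTC, from 49.7% to 63.7% in DTEC, from 51.9% to 37.4% between them and from 64.1% to 78.8% in KO. Upper-quartile scaling gave 65.0% in DTC and 38.7% from DTC to DTEC. With either scaling 5 or 6 of the 7 members were higher in DTC.

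The lists that follow are read against the shares of all genes tested: 34.0% called higher and 33.3% lower in DTC, 26.0% and 26.3% in DTEC, 28.8% and 26.6% from DTC to DTEC, and 2.76% and 1.55% in KO.

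The tested genes listed from the chromosome 20 WAP stretch moved as SLPI and WFDC2 did at 7 days. Of 15 listed, 3 were tested: SEMG1, WFDC3 and EPPIN. EPPIN was near absent, averaging 0.0212 CPM in WT, 0.562 CPM in DTC and 0.0621 CPM in DTEC. All 3 rose in DTC and fell from DTC to DTEC. Neighbours outside the list did not all do so in DTC. PIGT, 12.8 kb from WFDC2, was not called (log2 -0.12, edgeR adjusted p = 0.272). Nor was MATN4, 38.9 kb from SLPI (log2 1.74, edgeR adjusted p = 0.102), although its estimate was upward. From DTC to DTEC, MATN4 was called lower (log2 -3.65, edgeR adjusted p = 0.0121). Its levels were low, averaging 0.177 CPM in WT, 0.571 CPM in DTC and 0.0438 CPM in DTEC. STK4, 94.9 kb from PI3, was called lower (log2 -0.38, edgeR adjusted p = 0.0249). SEMG1, a seminal clot protein gene between PI3 and SLPI, went from 0.528 ± 0.159 CPM in WT to 2.55 ± 0.313 CPM in DTC and was at 0.370 ± 0.143 CPM in DTEC (n = 3 each). It was also higher in KO (1.63 ± 0.153 CPM), with a log2 fold change of 1.63 (SE 0.307, edgeR adjusted p = 0.00799). WFDC3 went from 3.05 ± 0.943 CPM in WT to 7.58 ± 1.55 CPM in DTC (log2 1.31, edgeR adjusted p = 0.000273). Its call from DTC to DTEC was lost without DTC replicate 2 (0.0573), DTC replicate 3 (0.055) or DTEC replicate 1 (0.0748).

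Among 15 other airway antiproteases, 11 were tested: 5 rose and 1 fell in DTC, 4 rose and 0 fell in DTEC, and 0 rose and 1 fell in KO. Over all genes 34.0% were called higher in DTC and 26.0% in DTEC. The list's median log2 fold change was -0.08 in DTC, positive under upper-quartile or total-count scaling (0.21 and 0.27), 0.04 in DTEC and 0.02 in KO. The cysteine protease inhibitor gene CST6 went from 7.46 CPM in WT to 72.2 CPM in DTC and 4.64 CPM in DTEC, and A2ML1 from 0.263 to 4.22 and 0.168 CPM. CSTB, which encodes cystatin B, did the reverse, at 287 ± 6.80 CPM in WT, 93.6 ± 13.5 CPM in DTC and 265 ± 31.3 CPM in DTEC (n = 3 each). The gene lower in KO was SERPINB1, an inhibitor of neutrophil proteases (log2 -0.58, SE 0.10, edgeR adjusted p = 0.00461).

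The antimicrobial peptide and oxidase list had 23 genes, of which 12 were tested. In DTC 6 rose and 2 fell, in DTEC 10 rose and 0 fell, from DTC to DTEC 6 rose and 2 fell, and in KO 2 rose and 0 fell. Over all genes the higher shares were 34.0%, 26.0%, 28.8% and 2.76%. The list's median log2 fold change was 0.72 in DTC, 2.08 in DTEC and 0.71 in KO. The KO genes were S100A8 and CFB. S100A8, a subunit of the metal-binding protein calprotectin, ran in the same order as DMBT1 except that KO exceeded DTEC: 4.89 ± 1.03 CPM in WT, 2.90 ± 1.04 CPM in DTC, 14.6 ± 3.79 CPM in DTEC and 18.6 ± 2.02 CPM in KO (n = 3 each). CFB, complement factor B, was, like BPIFB1, above WT in the other 3 groups, at 9.36 ± 0.376 CPM in WT and 96.0 ± 11.2, 52.8 ± 22.8 and 21.0 ± 0.569 CPM in DTC, DTEC and KO. The log2 fold changes in KO were 1.92 (edgeR adjusted p = 0.000578) for S100A8 and 1.16 (edgeR adjusted p = 0.0117) for CFB. CCL28, a mucosal chemokine with antimicrobial activity, was nearly absent in WT (0.0546 ± 0.0710 CPM) and reached 4.33 ± 0.862 CPM in DTC and 0.395 ± 0.238 CPM in DTEC.

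Of 19 partners of DMBT1 and genes of its domain family, 11 were tested: 7 rose and 1 fell in DTC, 2 rose and 2 fell in DTEC, 0 rose and 8 fell from DTC to DTEC, and 0 were called in KO by the edgeR test, where the list's median log2 fold change was 0.17. Over all genes 34.0% were higher in DTC and 26.0% in DTEC, and 26.6% were lower from DTC to DTEC. CD163L1, a scavenger receptor cysteine-rich gene, was at 2.23 ± 0.226 CPM in WT, 15.6 ± 8.03 CPM in DTC and 2.18 ± 0.873 CPM in DTEC. Surfactant protein gene SFTPA2 had 0 counts in all WT libraries and 1.02 ± 0.242 CPM in DTC, at least 11.0-fold higher against 3 counts per WT library; its reads can be confused with those of SFTPA1. MARCO, a bacterial scavenger receptor, went from 6.32 CPM in WT to 2.01 CPM in DTEC (log2 -1.67, edgeR adjusted p = 1.29e-05). Among IgA genes and receptors of the secreted proteins, 6 of 12 were tested: 6 rose in DTC, 2 rose and 1 fell in DTEC, and 0 were called in KO. They included LRP1, a receptor for lactoferrin, at 28.6 CPM in WT, 56.7 CPM in DTC and 91.3 CPM in DTEC, and MMP9, the partner of LCN2 in a secreted complex, at 0.283, 3.33 and 0.195 CPM.

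Regulators known for driving such genes moved both ways. Of 28 listed, 26 were tested: 13 rose and 9 fell in DTC, 13 rose and 5 fell in DTEC, 9 rose and 9 fell from DTC to DTEC, and 3 rose and 2 fell in KO. Over all genes 34.0% were called higher and 33.3% lower in DTC. Upper-quartile scaling gave 15 and 5 in DTC. Median log2 fold changes were 0.44, 0.39, -0.07 and 0.18 in that order. RELB and NFKBIZ, named for their rises in DTC, and TNFAIP3, named for its falls in DTEC, had their highest levels in DTC. TLR2 was also named for its rise in DTC, by 2.35 to 2.82 on the log2 scale over 14 alternative settings. RELB, an NF-kappaB subunit, was at 5.67 ± 1.13 CPM in WT, 34.9 ± 3.70 CPM in DTC, 9.02 ± 0.124 CPM in DTEC and 5.15 ± 0.856 CPM in KO. NFKBIZ, an inducer of LCN2, was at 2.90 ± 0.163, 14.9 ± 2.40, 7.20 ± 0.763 and 3.25 ± 0.494 CPM. TNFAIP3, a feedback inhibitor, went from 50.9 ± 3.96 CPM in WT to 159 ± 24.4 CPM in DTC and 17.0 ± 2.93 CPM in DTEC.

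ELF3, an epithelial ETS-family factor, was at 95.1 ± 2.81 CPM in WT, 158 ± 3.06 CPM in DTC, 238 ± 8.80 CPM in DTEC and 130 ± 4.18 CPM in KO (n = 3 each), the group order seen for LCN2. SPDEF, a secretory cell factor, was at 7.44 ± 0.95 CPM in WT, 1.59 ± 0.623 CPM in DTC, 17.1 ± 4.91 CPM in DTEC and 14.2 ± 1.74 CPM in KO. Its group means had the order seen for DMBT1, but the spreads (mean ± SD) of DTEC and KO overlapped. SPDEF's log2 fold change was 3.42 from DTC to DTEC (edgeR adjusted p = 1.78e-07) and 0.93 in KO (edgeR adjusted p = 0.0365), and the KO call was lost when any 1 of the 6 libraries was left out. ELF5 rose in KO (log2 0.78, SE 0.141, edgeR adjusted p = 0.0058). The call of CREB3L1, a secretory pathway factor lower in KO at -0.71 (edgeR adjusted p = 0.0475), was lost in 11 of 14 alternative settings.

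**Figure D3:**
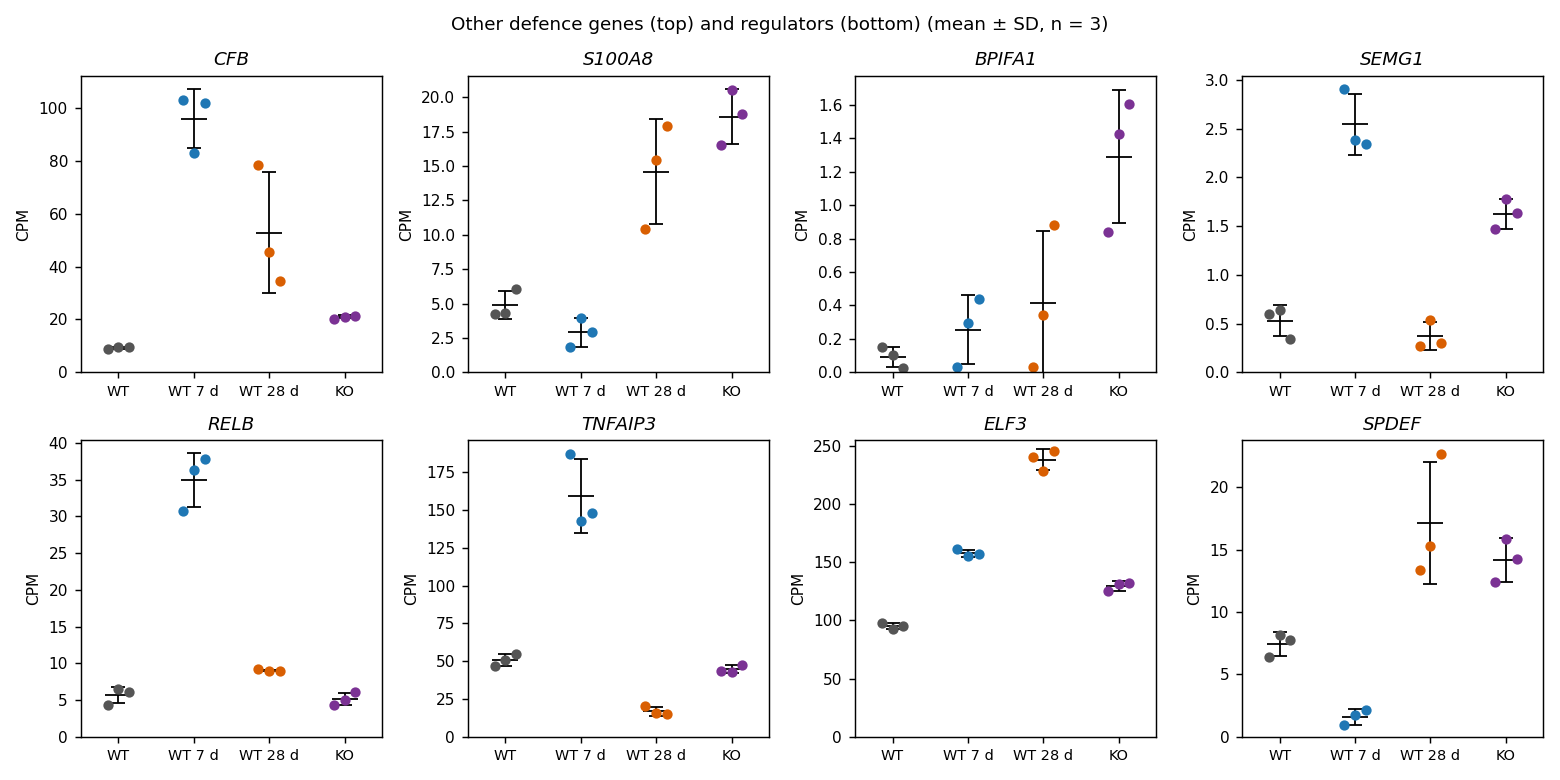
CPM of 4 other defence genes (CFB, S100A8, BPIFA1, SEMG1) and 4 regulators (RELB, TNFAIP3, ELF3, SPDEF) in each library, as points, with the mean and SD of each group of 3 (linear axes from 0; WT 7 d is DTC and WT 28 d is DTEC). RELB and TNFAIP3 peak at 7 days, at 34.9 and 159 CPM, whereas SPDEF is lowest there at 1.59 CPM.

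The genes whose log2 CPM most closely followed that of DMBT1 over the 12 libraries were named by rank among 13688 genes, with no test, since they were picked for the match. SFTPB, which encodes surfactant protein B of the alveolar lining, was nearest (Pearson r = 0.985, n = 12). It was at 1.25, 2.09 and 1.18 CPM in WT, 0.0338, 0.0294 and 0.147 CPM in DTC, 17.1, 13.5 and 11.7 CPM in DTEC, and 5.23, 7.25 and 6.66 CPM in KO. SFTPB thus had the group order of DMBT1 with no overlap. PLIN4 (0.983), SLC45A4 (0.977), PC (0.976), CELSR2 (0.976) and ZCCHC24 (0.976) came next. PLIN4, a lipid droplet protein gene, went from 9.0 CPM in WT to 3.63 CPM in DTC, 20.6 CPM in DTEC and 15.6 CPM in KO. PC, pyruvate carboxylase, went from 24.2 to 9.22, 39.2 and 32.7 CPM. These 12 points are 4 groups of 3 libraries, so r mainly reflects the order and spacing of 4 group means. No member came close: r with DMBT1 was 0.34 for LCN2, 0.14 for BPIFB1, 0.08 for PIGR, -0.28 for PI3, -0.43 for LYZ, -0.63 for SLPI and -0.88 for WFDC2. The 5 alveolar markers, SFTPB among them, summed to 3.67 to 4.89 CPM in WT, 3.11 to 4.46 CPM in DTC, 15.1 to 19.7 CPM in DTEC and 7.51 to 10.3 CPM in KO, while NKX2-1 and SFTPC were under 1 CPM in every library. Of the 4 with a test, 2 rose and 1 fell in DTC, and 2 rose and 0 fell in DTEC. In KO 1 rose and 0 fell. From DTC to DTEC 2 rose and 2 fell, so not all of the list followed SFTPB. Its median log2 fold change was 1.52 in DTC, 1.26 in DTEC, -0.50 from DTC to DTEC and 0.50 in KO. Over all genes the higher shares were 34.0% in DTC, 26.0% in DTEC, 28.8% from DTC to DTEC and 2.76% in KO.

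**Figure D4:**
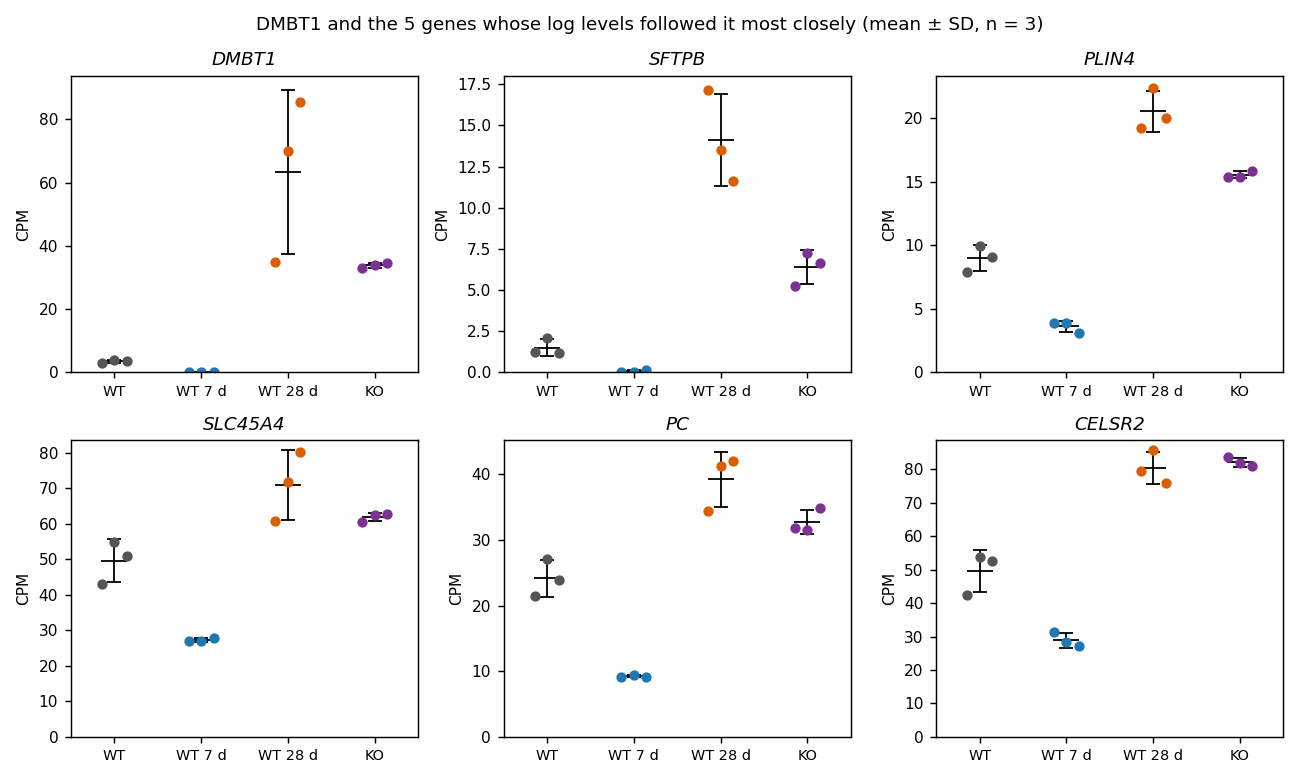
CPM of DMBT1 and the 5 genes nearest to it by Pearson r over 12 libraries, as points, with the mean and SD of each group of 3 (linear axes from 0, ranges differ; WT 7 d is DTC and WT 28 d is DTEC). In all 6 genes DTC is lowest, and DMBT1 and SFTPB span a wider fold range between groups than the other 4.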

How the data were processed

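Poly(A) RNA from the 12 cultures was extracted with RNeasy Plus, made into TruSeq Stranded mRNA libraries and read on an Illumina NovaSeq as 101 bp pairs, per the labels' protocols. The authors deposited expected counts per Ensembl gene, and the submitters' processing notes name RSEM 1.3.1, Bowtie2 2.5.2, DESeq2 1.40.2 and the build GRCh38. The annotation release and the strand setting of the counting are not given in the sources used here. Reads shared between similar genes are split by such an estimation, which makes low values uncertain.

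Expected counts were rounded, filtered with edgeR's filterByExpr, scaled by TMM and fitted in 1 edgeR 4.0.16 quasi-likelihood model over the 4 groups (R 4.3.3), with Benjamini-Hochberg adjustment over 17115 genes and calls at 0.05. CPM use the TMM-scaled library sizes. Symbols and coordinates come from GENCODE 29 (GRCh38), and symbols matched 62700 of 62754 identifiers. The script was tested on simulated data before use. Intervals and floors of 3 counts cover counting error only.

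The members and gene lists were chosen with earlier results of these data known, and no p is adjusted over a list alone. DMBT1 is given with no test in any comparison. Named list genes are the 3 called genes of largest log2 fold change per list and comparison with at least 1 CPM in a group. EPPIN and LBP, below that level, were named after their values were seen. The 6 genes most like DMBT1 needed a mean of 1 CPM. Alternatives covered scaling (RLE, upper quartile, total counts), filters, DESeq2 1.42.0, a fit of the compared libraries alone, a replicate block and each library left out.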

Additional observations from a re-analysis of the deposited data

Results flagged for a closer look

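DMBT1 moved in opposite directions at the early and late times of erlotinib: every DTC library was below and every DTEC library above the WT libraries. The fitted distance between DTEC and DTC was 8.56 on the log2 scale. That difference was not tested, since the gene was chosen on it.

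For 4 other members the level differed between day 7 and day 28 of erlotinib culture, by edgeR's quasi-likelihood test of DTEC against DTC over all genes tested. The log2 difference was 0.62 for LCN2, -1.12 for SLPI, -0.76 for WFDC2 and -0.54 for PI3. All 3 DTEC libraries lay above all 3 DTC libraries for LCN2 and below them for the 3 WAP-domain inhibitor genes. The comparisons of DTC and of DTEC with WT share the WT libraries. Drug and time in culture cannot be told apart here, and the cause of the differences was not tested.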

How the results depend on the processing

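Of 440 results for single members recomputed under alternatives, 405 kept their direction and side of the threshold, or for DMBT1 moved by less than the replicate spread. Of the rest, 16 reversed direction, 15 gained a call and 4 lost one. The 440 include DMBT1, which had no threshold to lose and kept 14 of 14 results in each of the 4 comparisons. Counts of called genes are not among the 440 and follow here. The count of genes called in KO was least stable, at 738 in the reported fit, 1147 with no count filter, 2656 with the KO and WT libraries fitted alone, and 321 to 426 with 1 library left out. Members called other than DMBT1 numbered 5 in DTEC with no count filter and 5 with the compared libraries alone, against 3 as reported. In KO they numbered 4 with the compared libraries alone and 1 to 2 with 1 library left out. The sign of PI3 in DTC turned from -0.04 to 0.0097 under RLE size factors, 0.25 under upper-quartile scaling, 0.32 under total counts and 0.071 under a filter of 1 CPM, and ran from -0.076 to 0.11 with 1 library left out. BPIFB1 from DTC to DTEC was -0.019 under upper-quartile scaling and -0.033 under total counts, and -0.066 to 0.24 with 1 library left out. With 1 library left out, PIGR ran from -0.082 to 2.31 from DTC to DTEC and from -0.57 to 3.87 in KO, and LYZ from -0.18 to 0.77 in KO; these were not called. PIGR ran from 0.32 to 5.95 in DTC and from 2.02 to 6.47 in DTEC over all alternatives, and was called in both without WT replicate 2 (edgeR adjusted p of 0.0444 and 0.0363) and in DTEC with no count filter (0.0192). The highest values of PIGR come from the fits without that library, where the other WT libraries are at 0, and are no measured fold. LYZ in DTEC passed the threshold in 6 alternatives. The cause of these shifts was not tested.

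Same-numbered libraries were at most weakly paired. The correlation of their deviations ran from -0.03 to 0.18 over 18 pairs, and 4 exceeded 0.1. For pairs with different numbers it ran from -0.19 to 0.12. A fit with the replicate block called 887 genes in KO, 11775 in DTC, 9255 in DTEC and 9732 from DTC to DTEC. The reported fit called 738, 11520, 8955 and 9480 in the same order. The block changed no call of a member. Depth limits PIGR, LTF, LYZ and SCGB3A1, and DMBT1 in DTC, where counts were few.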
